A study of Mus musculus with 32 samples.

Results

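Depolarisation of cultured WT hippocampal neurons with KCl raised the mRNA of the clock repressors Per1, Per2 and Cry2 and lowered that of Bhlhe40 in both soma and neurites, and it lowered Dbp mRNA in soma. In Mettl3 KO cultures, whose replicates differed more, none of these changes was called in the fits reported. The genes described here are 10 transcriptional repressors and output genes of the circadian clock, taken by symbol from the 55573 genes of the count table: Per1, Per2, Per3, Cry1, Cry2, Bhlhe40, Bhlhe41, Nr1d1, Nr1d2 and Dbp. All 10 passed the filter on low counts in each comparison. In GRCm38, Per1 (ENSMUSG00000020893) lies at chr11:69095217-69109960 on the plus strand, Per2 (ENSMUSG00000055866) at chr1:91415982-91459324 and Cry2 (ENSMUSG00000068742) at chr2:92403646-92434043 on the minus strand. Bhlhe40 (ENSMUSG00000030103) lies at chr6:108660629-108666925 and Dbp (ENSMUSG00000059824) at chr7:45705088-45710203, both on the plus strand.

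RNA-seq was performed on mouse hippocampal neurons from newborn pups, grown for 15 days on microporous inserts whose membrane lets neurites, but not cell bodies, reach the lower side. WT cultures came from C57BL/6 mice and Mettl3 KO cultures from Mettl3 flox/flox mice, and both genotypes received an AAV that expresses Cre and dTomato from the neuronal hSyn promoter at day 7 (50000 viral genomes per cell). Mettl3 encodes the catalytic subunit of the main m6A methyltransferase, and glia, which do not use the hSyn promoter, keep it in the Mettl3 KO cultures. TTX (1 µM) and D-AP5 (50 µM) silenced all cultures for 16 h, after which they were left untreated (Ctrl) or received 55 mM KCl for 2 h. Soma (upper side, which also holds neurites that did not cross) and neurites (lower side) of WT and Mettl3 KO cultures, with and without KCl, gave 8 groups of 2 libraries each. Each library came from pooled tissue of a litter, and Ctrl and KCl cultures shared litters.

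The circadian clock is a transcriptional feedback loop. CLOCK or NPAS2 pairs with BMAL1 (Arntl) and activates genes through E-box elements. The PER and CRY proteins, which this pair induces, return to the nucleus and inhibit it, and BHLHE40 and BHLHE41 compete with it for E-boxes. NR1D1 and NR1D2 repress Arntl through RORE elements, and DBP is an output factor that activates genes through D-box elements. In the suprachiasmatic nucleus, light reaches the clock through neuronal activity, calcium and CREB, which induces Per1 and Per2 by way of cAMP response elements (CRE) in their promoters. Hippocampal neurons express the same genes.

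The letters of these elements were looked for in RefSeq promoters (GRCm38.p6, from 250 bases before to 50 bases after each start), because 3 of the genes rose together. Windows were matched for 8 of the 10 genes, not for Per2 and Bhlhe40, and Per1 has 2. The short CRE core TGACG, searched on both strands, was present in both windows of Per1 and in those of Cry1 and Cry2, and in 20.8% of all 32851 windows. The full CRE TGACGTCA, which contains these letters, was in none of the genes' windows and in 1.79% of all. The matches are printed here on the gene's strand with the matching letters in capitals; CGTCA is TGACG read on the other strand.
Per1, first window, chr11:69098699-69098728 (+): ttatTGACGgtgtgagacatcctgatcgca
Per1, second window, chr11:69100008-69100037 (+): gagctcagcggcTGACGtcggtttccctgg
Cry2, chr2:92434261-92434290 (-): agcgcggtcctgCGTCAccggcgggtggct
Cry1, chr10:85185045-85185074 (-): ggcggaggccgcTGACGcggcggagtcacc

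The E-box CACGTG, the element of CLOCK and BMAL1, was found in 1 window of Per1 and in those of Cry1 and Bhlhe41, against 7.15% of all windows. The D-box, TTATGTAA or TTACGTAA, was found in the Per3 window, in 2 places, and in 1.06% of all windows. The RORE core AGGTCA was in 1 window of Per1 and in that of Nr1d2, against 16.3% of all. The windows of Nr1d1 and Dbp held none of these letters. The E-boxes and the D-boxes of Per3 are shown because the products of several of the genes act through them.
Per1, E-box, chr11:69098771-69098800 (+): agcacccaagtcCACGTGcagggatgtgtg
Cry1, E-box, chr10:85185097-85185126 (-): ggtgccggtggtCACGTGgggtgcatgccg
Bhlhe41, E-box, chr6:145865556-145865585 (-): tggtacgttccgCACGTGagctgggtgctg
Per3, D-box, chr4:151044805-151044834 (-): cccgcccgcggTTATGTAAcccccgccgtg
Per3, D-box, chr4:151044852-151044881 (-): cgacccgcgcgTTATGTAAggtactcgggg

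The libraries held between 33789183 and 71394235 counted fragments. In WT, the 6 activity-induced genes used to check the treatment (Fos, Npas4, Arc, Egr1, Nr4a1 and Junb) all rose in soma and in neurites. Mettl3 itself was at 16.1 to 16.7 CPM (counts scaled to the library total) in untreated WT soma and at 8.93 to 11 CPM in untreated Mettl3 KO soma. This log2 difference of -0.73 was not called. Cre removes only the exon flanked by loxP sites, and counts per gene include the other exons, so they do not measure how complete the knockout was. The paper reports near complete loss of METTL3 protein in such cultures. The soma and neurite libraries of the first KCl-treated Mettl3 KO insert stood apart from the other 14. Their 8 markers of the oligodendrocyte lineage summed to 3668 and 7332 CPM, against 58.7 to 192 CPM elsewhere, and their 10 neuronal markers to 916 to 1507 CPM, against 3571 to 5898 CPM. Their 8 astrocyte markers summed to 9522 and 18782 CPM, against 1099 to 6463 CPM. The log2 values of KCl-treated Mettl3 KO cultures are therefore given with and without this insert. In bulk samples, fewer cells of a type and less RNA per cell cannot be told apart. Malat1, Meg3 and Snhg11, taken as markers of soma nuclei, summed to 3880 to 3970 CPM in untreated WT neurites against 6089 to 6096 CPM in soma. After KCl they summed to 4312 to 4788 CPM in WT neurites and to 6543 to 6842 CPM in soma. The part of soma RNA in the neurite values was not tested.

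In untreated WT soma, Cry2 was by far the most abundant of the 10 mRNAs. Levels between genes are compared per length, as FPKM (CPM per kilobase of exon). Cry2 was at 28.7 ± 2.47 FPKM (SD, n = 2), Nr1d1 at 11.1 ± 0.18 and Nr1d2 at 8.27 ± 0.41. Cry1 (7.34 FPKM), Bhlhe40 (6.70 FPKM) and Dbp (5.67 FPKM) followed, and neighbours among them overlapped in their libraries. Per2 (3.75 FPKM) overlapped with Per1 (3.74 FPKM), and Bhlhe41 (3.19 FPKM) with Per3 (2.95 FPKM), at the low end. After KCl the order in soma changed: Cry2 reached 77.9 ± 18.1 FPKM, Per1 19.6 ± 10.6 and Per2 12.5 ± 4.02. The ranges of Per1 and Per2, of Per2 and Nr1d1, of Nr1d1 and Nr1d2, and of Nr1d2 and Cry1 overlapped. Dbp was then last, at 1.57 ± 0.80 FPKM.

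**Figure D1:**
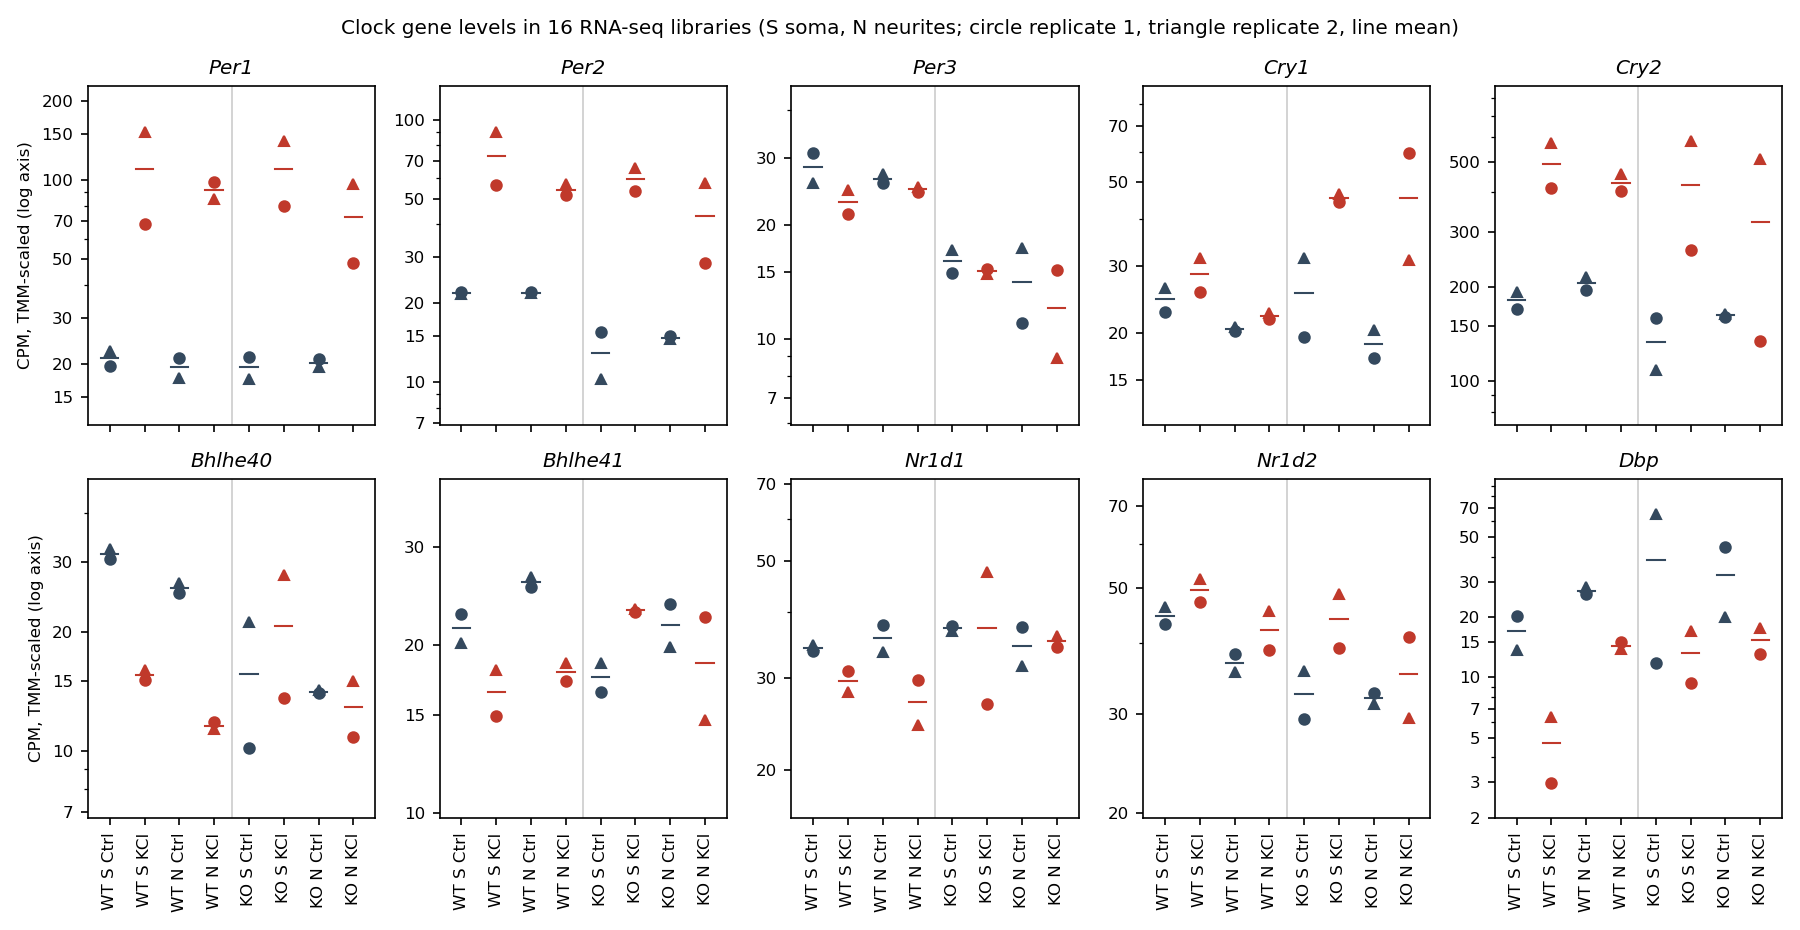
Level of each of the 10 clock genes in the 16 RNA-seq libraries, in CPM after TMM scaling (log axis), with untreated libraries in dark grey and KCl-treated libraries in red; circles and triangles are replicates 1 and 2 and lines are group means. Per1, Per2 and Cry2 were higher in every KCl-treated WT library than in any untreated WT library, and Bhlhe40 was lower.

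Of the PER family, the proteins that with CRY form the inhibitory complex of the clock, Per1 and Per2 rose with KCl in WT neurons and Per3 did not pass the test. Genes were called as responding at an adjusted p of at most 0.05 and at least 2-fold in edgeR's quasi-likelihood test, fitted over all genes. Per1 was at 19.6 and 22.5 CPM in the untreated WT soma libraries and at 68.1 and 152 CPM in the KCl-treated ones. In neurites it was at 21.1 and 17.7 CPM without KCl and at 98.5 and 84.9 CPM with it. The groups did not overlap in either compartment, and the KCl-treated soma libraries lay further apart than any other WT pair for this gene. The log2 change of Per1 was 2.32 (SE 0.30, adjusted p = 0.000625) in soma and 2.27 (SE 0.31, adjusted p = 0.00133) in neurites; without the second KCl-treated soma library the soma value was 1.61, still called. In soma, 324 of 24060 genes had a larger rise than Per1.

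Per2 was at 22.2 and 21.7 CPM in untreated WT soma and at 56.5 and 89.8 CPM after KCl. In neurites it was at 22.0 and 21.8 CPM, and after KCl at 51.6 and 56.8 CPM. The untreated libraries were close to each other and all lay below the KCl-treated ones. Its log2 change was 1.66 (SE 0.19, adjusted p = 0.00026) in soma and 1.34 (SE 0.19, adjusted p = 0.00182) in neurites. Per3 was at 30.9 and 25.8 CPM in untreated soma and at 21.3 and 24.7 CPM after KCl, with a log2 change of -0.38 (SE 0.14, adjusted p = 0.105). In neurites the log2 change of Per3 was -0.06 (SE 0.14, adjusted p = 0.851).

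Among the WT genes tested in soma, 3.74% were called higher and 2.96% lower after KCl, and in neurites 3.33% and 1.70%. Of the 10 clock genes, 3 were called higher and 2 lower in soma, and 3 higher and 1 lower in neurites. The median log2 change of the 10 was -0.10 in soma and 0.05 in neurites, and that of all genes tested was 0.01 in both. Scaling by library totals alone moved the log2 change of the median gene in soma by -0.15 and changed the soma split of all calls from 899 higher and 712 lower to 789 and 1107; the clock genes called were 3 higher and 2 lower under both. When the spread was estimated over all 16 libraries, Mettl3 KO included, the calls of Cry2, Bhlhe40 and Dbp in soma and of Per2, Cry2 and Bhlhe40 in neurites were lost, with little change in their log2 values.

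The CRY proteins are the stronger repressors of the CLOCK and BMAL1 pair. Cry2, the most abundant of the 10 mRNAs, was at 170 and 192 CPM in untreated WT soma and at 412 and 573 CPM after KCl. In neurites it was at 196 and 214 CPM without KCl and at 403 and 456 CPM with it. No KCl-treated library overlapped with an untreated one. The log2 change of Cry2 was 1.37 (SE 0.16, adjusted p = 0.000297) in soma and 1.11 (SE 0.16, adjusted p = 0.00198) in neurites. Its paralog Cry1 was at 22.7 and 26.3 CPM in untreated soma and at 25.7 and 31.4 CPM after KCl, and these ranges overlapped. The log2 change of Cry1 was 0.15 (SE 0.14) in both compartments, with adjusted p = 0.575 in soma and 0.586 in neurites.

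Of the E-box competitors, Bhlhe40 fell with KCl in both compartments. It was at 30.6 and 32.4 CPM in untreated WT soma and at 15.1 and 16.0 CPM after KCl. In neurites it went from 25.1 and 26.6 CPM to 11.8 and 11.4 CPM. The replicates were close together and the groups did not overlap. The log2 change of Bhlhe40 was -1.09 (SE 0.13, adjusted p = 0.000266) in soma and -1.12 (SE 0.13, adjusted p = 0.000367) in neurites, near the 2-fold limit; without the second untreated soma library the soma value was -0.98 and the call was lost. Bhlhe41 had lower values after KCl too, from 22.8 and 20.1 CPM to 14.9 and 18.1 CPM in soma and from 25.5 and 26.5 CPM to 17.2 and 18.6 CPM in neurites. These groups did not overlap either, but the log2 changes of -0.45 (SE 0.14, adjusted p = 0.0622) in soma and -0.50 (SE 0.14, adjusted p = 0.0604) in neurites were below 2-fold and did not pass the test.

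**Figure D2:**
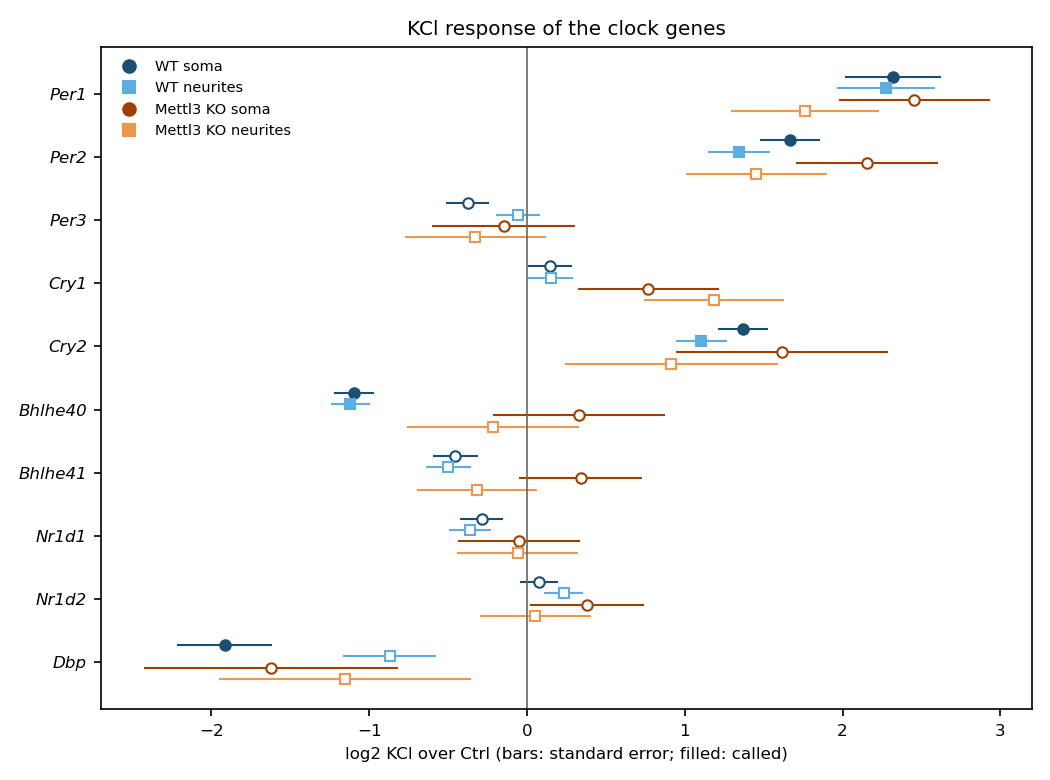
Log2 KCl over Ctrl of the 10 clock genes in WT and Mettl3 KO soma and neurites; bars are standard errors and filled symbols mark genes called at an adjusted p of at most 0.05 and at least 2-fold. WT values of Per1 (2.32 in soma, 2.27 in neurites), Per2 (1.66 and 1.34) and Cry2 (1.37 and 1.11) lie to the right and Bhlhe40 (-1.09 and -1.12) to the left, while Mettl3 KO values have wider bars and no filled symbol.

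The nuclear receptors NR1D1 and NR1D2 (REV-ERBα and REV-ERBβ), repressors of Arntl, did not pass the test. Nr1d1 was at 33.8 and 34.6 CPM in untreated WT soma and at 30.9 and 28.2 CPM after KCl, a log2 change of -0.29 (SE 0.14, adjusted p = 0.216). In neurites its log2 change was -0.36 (SE 0.13, adjusted p = 0.134). Nr1d2 was at 43.2 and 46.3 CPM in untreated soma and at 47.3 and 52.1 CPM after KCl, a log2 change of 0.08 (SE 0.12, adjusted p = 0.751), and in neurites its log2 change was 0.23 (SE 0.12, adjusted p = 0.296).

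Dbp, the PAR bZIP output factor, had the largest fall of the 10 in WT soma, while in neurites that of Bhlhe40 was larger. In soma Dbp went from 20.2 and 13.7 CPM to 3.0 and 6.39 CPM (158 and 440 counts), a log2 change of -1.91 (SE 0.30, adjusted p = 0.002), or -2.59 without the second KCl-treated library. In that comparison 237 of 24060 genes had a larger fall. In neurites it was at 26.0 and 28.1 CPM without KCl and at 14.9 and 13.9 CPM with it. The groups did not overlap in either compartment, but the neurite log2 change of -0.87 (SE 0.30, adjusted p = 0.105) was below 2-fold and did not pass the test. Exons of Dbp share 539 of 2993 bases with Sphk2 on the other strand, and those of Nr1d1 share 263 of 3077 with Thra, of Bhlhe41 1280 of 6720 with Gm43909, of Cry2 295 of 6320 with D930015M05Rik and of Bhlhe40 118 of 4705 with 0610040F04Rik. Counting was unstranded and left fragments that overlap exons of more than 1 gene unassigned, so levels of these 5 genes miss such fragments, and without strand, reads from an unannotated stretch of a partner over their exons cannot be told apart from their own.

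Neurite enrichment, the ratio of neurites to soma, was called at an adjusted p of at most 0.05 and at least 1.5-fold. In untreated WT neurons 13.6% of genes were called and none of the 10 clock genes. The lowest adjusted p-values were those of Bhlhe40, with a log2 ratio of -0.38 (SE 0.12, adjusted p = 0.0526), and Nr1d2, with -0.37 (SE 0.12, adjusted p = 0.0567), both lower in neurites by less than 1.5-fold. Cry1 had a log2 ratio of -0.35 (SE 0.14, adjusted p = 0.108) and Dbp one of 0.58 (SE 0.29, adjusted p = 0.186), the largest of the 10 and just short of 1.5-fold. With scaling by library totals alone, which moved the log2 ratio of the median gene by -0.23, Cry1 (-0.59), Bhlhe40 (-0.61) and Nr1d2 (-0.60) passed, and the split of all calls went from 2091 higher and 1054 lower to 1335 and 3746. Fitted on its 4 libraries alone, Dbp passed with a log2 ratio of 0.66 (adjusted p = 0.0336; 0.022 to 0.871 across the alternatives).

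After KCl, 9.60% of genes were called and Dbp was the only clock gene among them, with a log2 neurite-to-soma ratio of 1.62 (SE 0.30, adjusted p = 0.00745). Its 13.9 and 14.9 CPM in KCl-treated neurites lay above its 3.0 and 6.39 CPM in KCl-treated soma. Without the first KCl-treated neurite library the adjusted p was 0.0585, and it was 0.902 with the spread of 16 libraries; without the second KCl-treated soma library the log2 ratio was 2.29. Without the first KCl-treated soma library, Per1 (log2 ratio -0.70) and Per2 (-0.70) were called as lower in neurites as well. Library totals alone changed the split of all calls from 1582 higher and 629 lower to 1070 and 1818 and added Per2 (-0.60) and Bhlhe40 (-0.59).

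The difference between the treated and the untreated log2 ratio, tested with a term for each insert, was 1.10 for Dbp (SE 0.40, unadjusted p = 0.0212, adjusted p = 0.999). It passed the study's rule of an unadjusted p of at most 0.05 and at least 1.5-fold, which 3.36% of genes passed, and the other 9 clock genes did not. At an adjusted p, edgeR called 0 of 23200 genes in this fit. Across the alternatives the adjusted p of Dbp ranged from 0.0378 to above 0.999. Without either library of the first untreated or first KCl-treated insert the value for Dbp was between 0.51 and 0.77 and did not pass, and without either library of the second KCl-treated insert it was 1.76. Per1 passed as well at 0.78 without the second KCl-treated soma or neurite library, and in the other direction, at -0.64 and -0.65, without the first. Of 8 astrocyte markers, 4 were called as higher in untreated and 3 in KCl-treated WT neurites than in soma. Their sum was 1099 to 1120 CPM in untreated and 1392 to 1460 CPM in KCl-treated WT soma, and 1960 to 2988 CPM and 2191 to 2577 CPM in the neurites; the part of astrocyte RNA in the Dbp ratio was not tested.

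**Figure D3:**
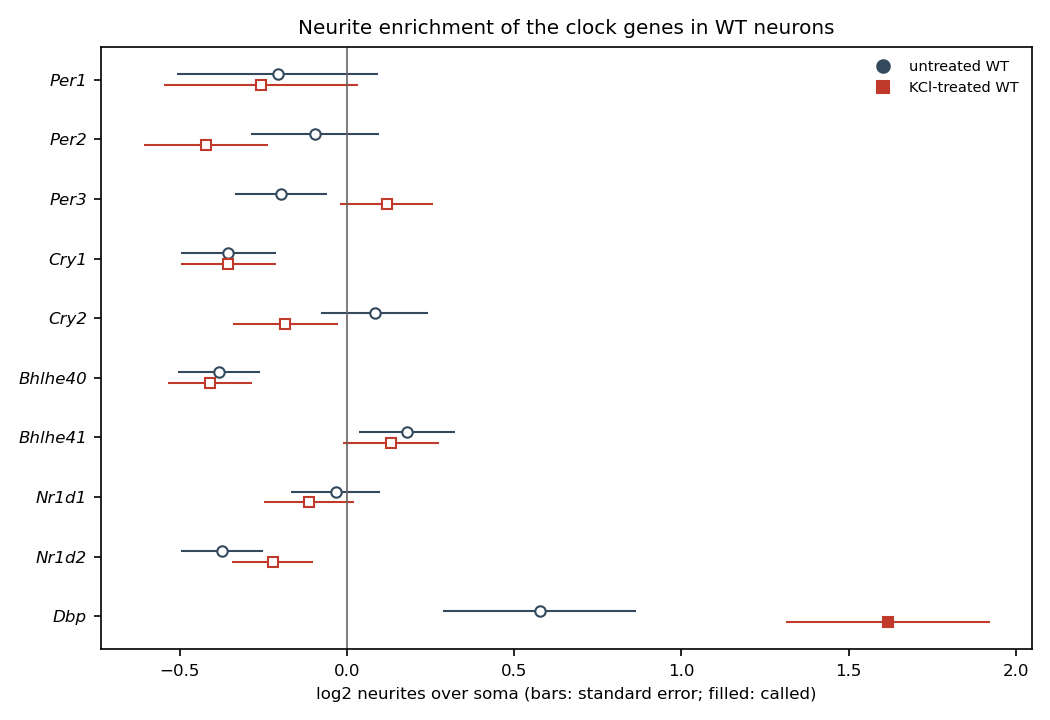
Log2 neurites over soma of the 10 clock genes in untreated (dark grey) and KCl-treated (red) WT neurons; bars are standard errors and filled symbols mark genes called at an adjusted p of at most 0.05 and at least 1.5-fold. Dbp lies at 0.58 without KCl and at 1.62 with it, where it is the only filled symbol.

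In Mettl3 KO cultures, Per1, Per2 and Cry2 also had higher values after KCl in the group means, but the replicates differed more than in WT. Per1 was at 21.3 and 17.6 CPM in untreated Mettl3 KO soma and at 79.6 and 141 CPM after KCl, and in neurites at 20.9 and 19.5 CPM and at 48.5 and 96.6 CPM. Per2 was at 15.6 and 10.3 CPM in untreated soma and at 53.5 and 65.4 CPM after KCl, and in neurites at 15.0 and 14.6 CPM and at 28.5 and 57.3 CPM. The KCl-treated libraries did not overlap with the untreated ones for either gene. Cry2 was at 159 and 109 CPM in untreated soma and at 261 and 582 CPM after KCl. In neurites it was at 160 and 164 CPM without KCl and at 134 and 510 CPM with it, and there the library of the first insert lay below the untreated ones.

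The log2 KCl change in Mettl3 KO soma was 2.45 for Per1 (SE 0.48, adjusted p = 0.368), 2.16 for Per2 (SE 0.45, adjusted p = 0.413) and 1.62 for Cry2 (SE 0.67, adjusted p = 0.751). The called shares of all genes were 0% higher and 0% lower in soma and the same in neurites. In soma edgeR called 0 of 23679 genes, with 1562 at an unadjusted p under 0.05, and DESeq2 called 270. DESeq2 called Per1 (adjusted p = 0.0024) and Per2 (adjusted p = 0.00857), as did edgeR with no count filter or with the spread of all 16 libraries; across the alternatives the lowest and highest adjusted p were 0.00124 and 0.999 for Per1 and 0.00857 and 0.999 for Per2. In neurites edgeR called 0 of 22199 genes, with 1390 at an unadjusted p under 0.05, and DESeq2 called 253 but none of the clock genes. The log2 changes in neurites were 1.76 for Per1 (SE 0.47, adjusted p = 0.673), 1.45 for Per2 (SE 0.44, adjusted p = 0.737) and 0.92 for Cry2 (SE 0.67, adjusted p = 0.74). Without the first KCl-treated insert they were 2.82 in soma and 2.28 in neurites for Per1, 2.31 and 1.97 for Per2, and 2.10 and 1.68 for Cry2, none of them called; this leaves 1 KCl-treated library in each compartment, assumed to vary like the other groups. Without the second KCl-treated neurite library they were 1.00 for Per1, 0.69 for Per2 and -0.53 for Cry2 in neurites.

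Cry1 was at 19.4 and 31.5 CPM in the untreated Mettl3 KO soma libraries and at 44.2 and 46.5 CPM in the KCl-treated ones, a log2 change of 0.77 (SE 0.45, adjusted p = 0.756), and 0.83 without the first insert. In neurites Cry1 was at 17.1 and 20.3 CPM without KCl and at 59.7 and 31.1 CPM with it, a log2 change of 1.18 (SE 0.44, adjusted p = 0.737), and 0.76 without the first insert. Dbp was at 11.8 and 64.8 CPM in untreated Mettl3 KO soma and at 9.41 and 17.0 CPM after KCl, so the groups overlapped, and its log2 change was -1.62 (SE 0.81, adjusted p = 0.751), or -1.23 without that insert. In neurites Dbp was at 44.7 and 20.1 CPM without KCl and at 13.1 and 17.7 CPM with it, a log2 change of -1.15 (SE 0.80, adjusted p = 0.737), or -0.85 without it. Bhlhe40 was at 10.1 and 21.2 CPM in untreated Mettl3 KO soma and at 13.6 and 27.8 CPM after KCl, a log2 change of 0.33 (SE 0.54, adjusted p = 0.865), which was 0.78 without the first insert. In neurites Bhlhe40 was at 14 and 14.2 CPM and after KCl at 10.8 and 15.0 CPM, a log2 change of -0.21 (SE 0.55, adjusted p = 0.91), which was 0.11 without it.

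The difference between the Mettl3 KO and the WT response was tested in 1 fit over 16 libraries. The called share of all genes was 0% in soma and 0% in neurites. In soma edgeR called 0 of 24058 genes, with 493 at an unadjusted p under 0.05; DESeq2 called 2 and limma voom 0. In neurites edgeR called 0 of 22311, with 917 at an unadjusted p under 0.05, and DESeq2 and limma voom 0. The soma response of Bhlhe40 was higher in Mettl3 KO by 1.42 on the log2 scale (SE 0.53, unadjusted p = 0.0204, adjusted p = 0.994), and by 1.87 without the first KCl-treated Mettl3 KO insert (unadjusted p = 0.00226, adjusted p = 1.00; 0.389 to 1.00 adjusted across the alternatives). For Bhlhe41 in soma the difference was 0.78 (SE 0.36, unadjusted p = 0.0492, adjusted p = 0.994), and 0.82 without that insert. In neurites the difference was 1.17 for Cry1 (SE 0.44, unadjusted p = 0.0223, adjusted p = 0.866), 0.57 without that insert, and 1.03 for Bhlhe40 (SE 0.53, adjusted p = 0.866), 1.19 without it. On data simulated from these libraries, edgeR recovered 0% of 200 genes changed 4-fold in the genotype difference and 0% in the Mettl3 KO soma response, against 81.5% in the WT soma response. The simulation drew each library independently, and its spread was that of all libraries of the fit, with the first KCl-treated Mettl3 KO insert included where Mettl3 KO was fitted.

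In untreated cultures, Mettl3 KO and WT were compared at an adjusted p of at most 0.05 and at least 1.5-fold; 0.185% of genes were called in soma and 0.188% in neurites, and none of the clock genes. Per3 was at 14.9 and 17.2 CPM in Mettl3 KO soma and at 30.9 and 25.8 CPM in WT soma, without overlap, and its log2 difference was -0.82 (SE 0.30, adjusted p = 0.424). In neurites Per3 was at 11 and 17.3 CPM against 25.7 and 27.1 CPM, a log2 difference of -0.90 (SE 0.30, adjusted p = 0.439). Bhlhe40 had log2 differences of -1.01 in soma (SE 0.37, adjusted p = 0.432) and -0.87 in neurites (SE 0.37, adjusted p = 0.625), and Per2 of -0.76 (SE 0.33, adjusted p = 0.521) and -0.56 (SE 0.33, adjusted p = 0.82). Dbp had a log2 difference of 1.17 in soma (SE 0.65, adjusted p = 0.641) and ranged from 11.8 to 64.8 CPM in Mettl3 KO soma, and without the first untreated Mettl3 KO soma library it was called, at 1.93 (adjusted p = 0.039, the lowest over the alternatives, the highest being 1.00), and without the second it was -0.56. All 8 astrocyte markers had higher values in untreated Mettl3 KO than in WT cultures, 0 of them called, with a median log2 difference of 0.97 in soma and 0.92 in neurites. Their sum was 1819 to 2407 CPM in Mettl3 KO soma against 1099 to 1120 CPM in WT, and 2785 to 6463 CPM against 1960 to 2988 CPM in neurites. Of 10 neuronal markers, 2 had higher values in Mettl3 KO in each compartment, and their sum was 3630 to 4224 CPM against 4082 to 4255 CPM in soma and 3571 to 4058 CPM against 5260 to 5866 CPM in neurites. The part of cell composition in the differences of the clock genes was not tested.

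The remaining clock genes gave 2 calls of 18 in WT soma and 1 of 18 in WT neurites, all higher after KCl, where 3.74% and 3.33% of all genes were called higher; the medians of the 18 were -0.11 and -0.03 on the log2 scale. Nfil3, a repressor that competes with DBP for D-boxes, was at 10.1 and 10.3 CPM in untreated WT soma and at 82.8 and 101 CPM after KCl, a log2 change of 3.09 (SE 0.20, adjusted p = 3.94e-06). In neurites its log2 change was 3.03 (SE 0.21, adjusted p = 1.09e-05). Ciart, a repressor of CLOCK and BMAL1 also known as Chrono, was at 22.0 and 22.4 CPM in untreated soma and at 63.0 and 44.1 CPM after KCl, a log2 change of 1.19 (SE 0.16, adjusted p = 0.000817); without the first KCl-treated soma library it was 0.94 and fell short of 2-fold. In neurites the log2 change of Ciart was 0.96 (SE 0.16, adjusted p = 0.0046), short of 2-fold. The activators did not pass: in soma the log2 change was -0.24 for Arntl (SE 0.13, adjusted p = 0.264), -0.27 for Clock (SE 0.12, adjusted p = 0.17) and -0.66 for Npas2 (SE 0.27, adjusted p = 0.137).

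Of 11 genes of the CREB and CRTC pathway, which links activity to CRE elements, 3 were called in WT soma and 3 in WT neurites, all higher after KCl, against 3.74% and 3.33% of all genes. They were Crem, whose products bind CRE elements, and the kinases Sik1 and Sik2, which hold CRTC coactivators in the cytoplasm. In soma the log2 change was 1.81 for Crem (SE 0.18, adjusted p = 8.52e-05), 2.42 for Sik1 (SE 0.27, adjusted p = 0.000243) and 2.35 for Sik2 (SE 0.23, adjusted p = 9.68e-05). In neurites it was 1.31 for Crem, 1.77 for Sik1 and 2.14 for Sik2. Creb1 had a log2 change of -0.08 in soma (SE 0.12, adjusted p = 0.717) and -0.07 in neurites (SE 0.12, adjusted p = 0.773).

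**Figure D4:**
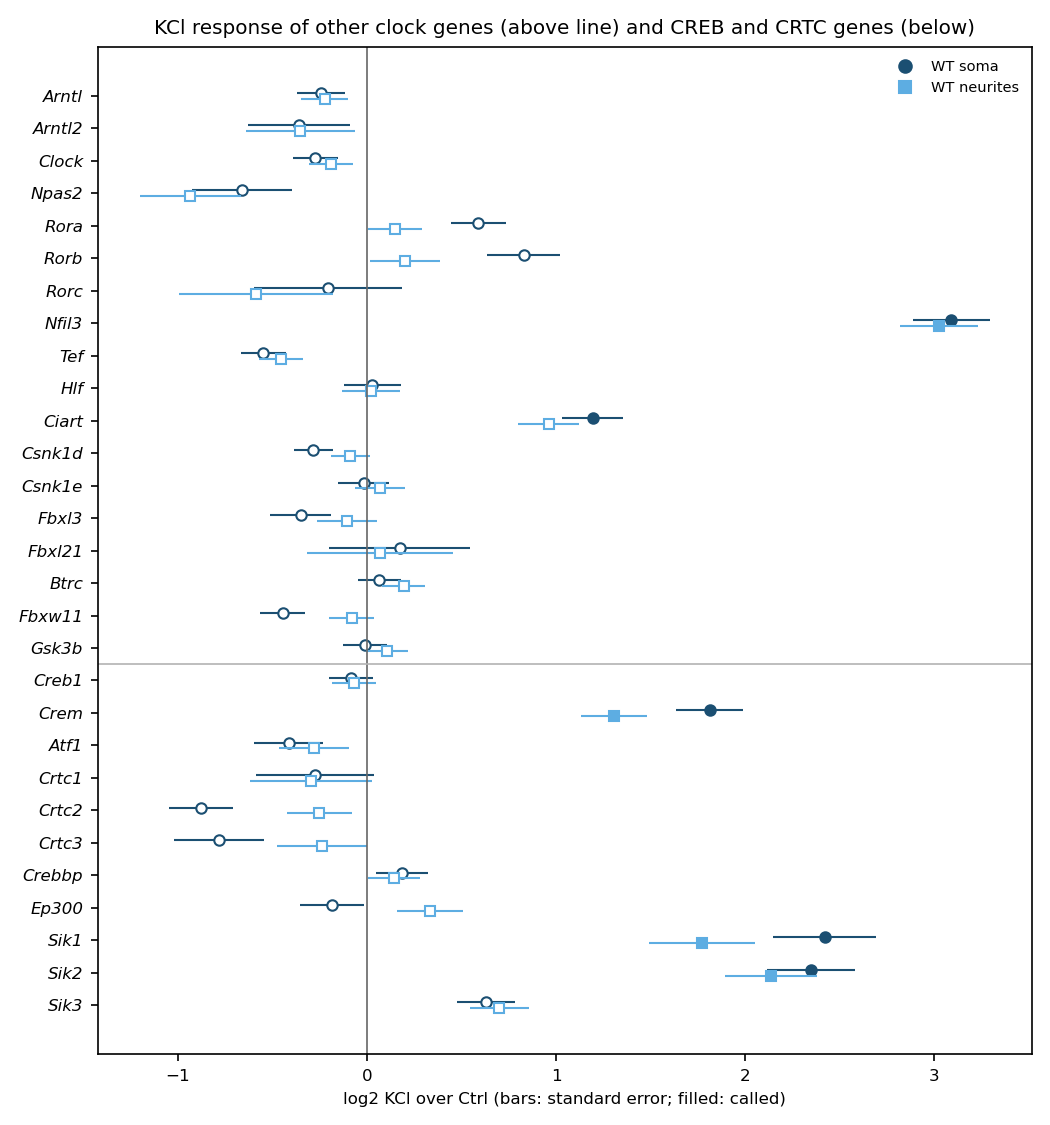
Log2 KCl over Ctrl in WT soma (dark circles) and WT neurites (light squares) for 18 other clock genes, above the line, and 11 CREB and CRTC genes, below it; bars are standard errors and filled symbols mark called genes. Nfil3 stands out among the clock genes at 3.09 and 3.03, and Crem, Sik1 and Sik2 are filled in both compartments.

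Over the 8 WT libraries, which share the KCl contrast, the log2 CPM of Per2 (Pearson r = 0.98) and Cry2 (r = 0.98) followed that of Per1 most closely among the 10 genes, and Bhlhe40 (r = -0.88), Nr1d1 (r = -0.80) and Bhlhe41 (r = -0.80) ran against it. Outside the gene lists, the genes most like Per1 among 14793 compared were Pcdh8 (r = 0.99), Wdr90 (r = 0.99), Utp14b (r = 0.99), Peg10 (r = 0.99) and Thrap3 (r = 0.99). Pcdh8, an activity-induced protocadherin also called Arcadlin, went from 96.0 ± 0.62 CPM to 558 ± 311 CPM in soma (SD, n = 2).

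DART-seq, in which a YTH domain fused to the deaminase APOBEC1 edits cytidines next to m6A to uridine, gave values pooled over libraries by the authors, so that no spread can be given. A site is a C in the sequence RAC, with the m6A inferred at the A before it, and the score of an RNA is the sum of the editing fractions of its sites. The separately listed site values do not always add up to the WT score. For Per1 they sum to 0.627 as fractions, against a WT score of 0.506. Of the 10 clock genes, 8 are in the authors' table of 5643 RNAs with sites (not Per3 and Bhlhe41), with 25 of 18231 listed sites. For scale, 24060 genes passed the count filter in the WT soma comparison. The study's calling required a minimum number of reads at a site, so being listed depends on the level of an RNA. Whether clock genes are listed more often than other genes of like level was not tested. Per1 had 11 sites, a number that 2.53% of the RNAs reach. Cry2 had 6, Nr1d2 had 3, and Per2, Cry1, Bhlhe40, Nr1d1 and Dbp had 1 each. The median RNA had 2.

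The authors' score of Per1 was 0.506 in WT and 0.143 in Mettl3 KO, and 137 RNAs had a higher WT score; the medians over all RNAs were 0.103 and 0.0285. Nr1d2 scored 0.241 in WT and 0.0546 in Mettl3 KO, and Cry2 0.177 and 0.0674. The other 5 scored below the median of all RNAs in WT, from 0.0216 for Nr1d1 to 0.0928 for Per2. All 8 had a lower score in Mettl3 KO than in WT; sites were called against the Mettl3 KO libraries, so this direction was part of their choice. The scores of Per1 in soma (0.501) and neurites (0.513) were close, while that of Bhlhe40 was 0.00929 in soma and 0.0758 in neurites. Per the study's supplement, the soma and neurite values pool untreated and KCl-treated libraries. Their genotype is not named there; of 1825 RNAs with 1 site, 96.3% had a WT score between their soma and neurite scores, and 45.3% had the mean of the WT and Mettl3 KO scores there.

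Of the Per1 sites, 6 lie in the coding sequence of the principal transcript (GENCODE, GRCm38), with 1.15% to 4.58% editing, and 5 in its introns, with 3.18% to 20.2%. The score and the number of sites of Per1 given above include these 5, so they do not describe its principal mRNA alone. Of those 5, the sites at 69105848 (6.31%) and 69105991 (6.19%) lie in the 3′ UTR of other annotated Per1 transcripts. The most edited site of all 25 was at position 69109047 of chromosome 11, in an intron of the principal Per1 transcript and in no exon of this GENCODE annotation. Per the study's methods, sites were searched in annotated exons and in extended 3′ UTRs. Which of these held this site in the authors' annotation was not checked. Per2 had its site in the 3′ UTR (8.04%), Nr1d2 had 2 sites in the 3′ UTR (11% and 9.78%) and 1 in the coding sequence (4.63%), and Cry2 had 3 in each. Bhlhe40, Cry1 and Nr1d1 had coding sites, and Dbp one in the 3′ UTR (2.81%). The most edited site of each responding gene and of Nr1d2 is shown with 12 bases on either side, the RAC in capitals and the edited C as its last letter. The most edited coding site of Per1 and the other 3′ UTR site of Nr1d2 are shown too.
Per1, intron, chr11:69109035-69109059 (+): tcccagtgagGACactacataactc
Per1, coding sequence, chr11:69100773-69100797 (+): cactgatgcaAACagcaatggctca
Per2, 3′ UTR, chr1:91417467-91417491 (-): tgtggcaggtAACagggaagccaca
Cry2, 3′ UTR, chr2:92405246-92405270 (-): tgatgtctgaGACaactgactggtg
Nr1d2, 3′ UTR, chr14:18204355-18204379 (-): gcattatgttAACaagatgaaccat
Nr1d2, 3′ UTR, chr14:18206139-18206163 (-): aaatactgaaAACtatccataaagc
Bhlhe40, coding sequence, chr6:108664876-108664900 (+): cttcaaaagcGACcatggacgcagg
Dbp, 3′ UTR, chr7:45709914-45709938 (+): tccttgctcaGACttacacctgact

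**Figure D5:**
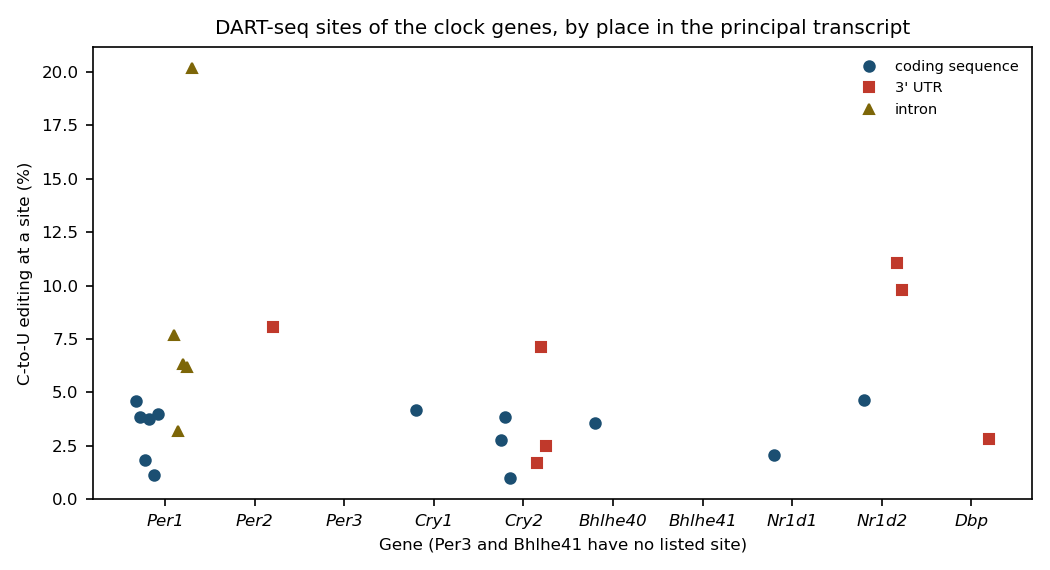
C-to-U editing at the 25 DART-seq sites of the clock genes in percent, as the authors' pooled values, by gene and by place in the principal transcript (circles coding sequence, squares 3′ UTR, triangles intron). Per1 holds 11 of the sites and the highest value, 20.2%, in an intron.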

How the data were processed

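RNA-seq reads were mapped by the authors with STAR 2.7.7a to mm10 and counted per gene with featureCounts 2.0.1 on Ensembl exons without strand; the deposited values are raw counts. The DART-seq files hold scores, editing fractions and other site values that the authors computed with Bullseye and pooled over 16 libraries. Columns of the authors' own DESeq2 and Xtail comparisons hold fold changes and p-values and were used only for gene symbols.

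Samples were grouped by their labels. Counts were tested here with edgeR 4.0.16 (TMM scaling, quasi-likelihood F-test, 2-sided, Benjamini-Hochberg over all genes whose mean count reached 10; mitochondrially encoded genes left out). Comparisons within a genotype were fitted on its 8 libraries, since the spread was wider in Mettl3 KO (biological coefficient of variation 0.505 against 0.151 in WT), and genotype comparisons on 16. Thresholds follow the study's methods, which give the 2-fold limit of the KCl response for soma only. Here it was used in neurites too, and the 1.5-fold limit for the genotype difference of the KCl response was chosen here. SE is the log2 change divided by the square root of F. CPM used TMM scaling over 16 libraries, and levels per kilobase used the exon lengths given with the deposited counts. GENCODE vM21 gave the place of DART-seq sites in transcripts. Adjusted p-values of DESeq2 1.42.0 and limma 3.58.1 are alternatives. Scripts were tested on simulated data. Libraries held 33789183 to 71394235 counts, and SE values cover counting error and the spread between 2 libraries a group together. Replicates came from distinct litters, per the study's methods.

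The genes and lists were chosen with earlier results of these data known. The text names all 10 clock genes, other clock, CREB and CRTC genes called in a WT KCl comparison plus Arntl, Clock, Npas2 and Creb1, and the 5 genes most correlated with Per1 (log2 CPM, mean count of at least 100). Alternatives were DESeq2, other scalings, filters and sets of libraries, a replicate block, limma voom with weights by genotype, and each library left out.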

Additional observations from a re-analysis of the deposited data

Results flagged for a closer look

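The neurite-to-soma ratio of Dbp had a higher value in KCl-treated than in untreated WT neurons, by 1.10 on the log2 scale (SE 0.40, unadjusted p = 0.0212, adjusted p = 0.999, edgeR with 1 term per insert), a test of the difference between 2 effects of compartment. It passed only at an unadjusted p, and at an adjusted p 0 of 23200 genes were called. Across 15 alternatives the value went from 0.51 to 1.76, and 9 of them kept the call. The ratio was 0.58 without KCl and 1.62 with it. Dbp was at 3.0 and 6.39 CPM in KCl-treated soma, its lowest group.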

How the results depend on the processing

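Over all comparisons and alternatives, 1370 values of the 10 clock genes were computed; 1244 kept their direction and their side of the threshold, 15 lost a call, 20 gained one and 91 changed direction, 0 of these 91 called in the fits reported. The 3 rises and 2 falls in WT soma and the 3 rises and 1 fall in WT neurites were called with DESeq2, both other scalings, both other filters, the 4 libraries of the comparison and a replicate block. With the spread of 16 libraries the clock genes called were 2 in WT soma, 1 in WT neurites, 2 in Mettl3 KO soma, 0 in KCl-treated neurite enrichment and 0 in its change. In Mettl3 KO soma DESeq2 and no count filter gave 2 each. In untreated enrichment the 4 libraries alone gave 1 and library totals 3, and library totals gave 3 in KCl-treated enrichment. An unadjusted p gave 2 in the genotype difference in soma and 1 in neurites, and an adjusted p gave 0 in the change of enrichment.

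Over all genes, the spread of 16 libraries gave 341 calls in WT soma, 263 in WT neurites, 277 in Mettl3 KO soma, 223 in Mettl3 KO neurites, 0 in both enrichments and 291 in the change of enrichment. A mean count of at least 100 gave 1040 in WT soma, 643 in WT neurites and 425 in the change of enrichment, with fewer genes tested. No count filter gave 1776 in WT neurites, 799 in Mettl3 KO soma, 441 in Mettl3 KO neurites, 236 in the genotype difference in soma, 1457 in the change of enrichment and 72 between genotypes in untreated soma. DESeq2 gave 270 in Mettl3 KO soma, 253 in Mettl3 KO neurites, 2 in the genotype difference in soma, 498 in the change of enrichment, and 413 and 313 between genotypes in untreated soma and neurites, where limma voom gave 18 and 23. Library totals gave 5081 in untreated enrichment. An unadjusted p gave 493 and 917 in the genotype differences, and an adjusted p gave 0 in the change of enrichment. The cause of these differences was not tested.

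Leaving out each library in turn gave 812 to 1522 calls in WT soma, 576 to 1186 in WT neurites, 0 to 3 in Mettl3 KO neurites, 0 to 1445 and 0 to 3 in the genotype differences in soma and neurites, 1068 to 3694 in untreated and 752 to 2395 in KCl-treated enrichment, 518 to 1666 in its change, and 4 to 2705 and 4 to 14 between genotypes in untreated soma and neurites. The clock genes called were then 0 to 3 in KCl-treated enrichment, 0 to 2 in its change and 0 to 1 between genotypes in untreated soma. Of the log2 values given in the text, those that changed direction went from -0.017 to 0.33 for Cry1 and from -0.0031 to 0.20 for Nr1d2 in WT soma, from -0.29 to 1.03 for Bhlhe40 and from -2.42 to 0.17 for Dbp in Mettl3 KO soma, and from -0.53 to 1.59 for Cry2 and from -0.64 to 0.022 for Bhlhe40 in Mettl3 KO neurites. They went from -0.70 to 0.46 for Per1 in KCl-treated enrichment, from -0.65 to 0.78 for Per1 in its change, and from -0.56 to 1.93 in soma and -0.42 to 0.76 in neurites for Dbp between genotypes. Library totals gave -0.070 for Nr1d2 in WT soma.

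Library totals alone and the fits without the first KCl-treated Mettl3 KO insert were chosen after seeing the data. The fits without that insert gave 19 calls in Mettl3 KO soma and 12 in neurites, and 0.11 for Bhlhe40 in neurites. For Per1 the change of enrichment was -0.042 with 16 libraries and -0.050 with no replicate block (no term per insert). Same-numbered WT libraries of different groups did not deviate together (Pearson r between -0.18 and 0.08 over 15170 genes), and those of Mettl3 KO gave 0.08 to 0.19, except 0.90 between the KCl-treated soma and neurites. With the replicate block, 1503 genes were called in WT soma, 1027 in WT neurites, 4 in Mettl3 KO soma and 0 in Mettl3 KO neurites, and no call of a clock gene changed. The lowest count of a clock gene in any library was 158 (Dbp in KCl-treated WT soma); counting error and the spread between replicates were not compared.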
